A study of Homo sapiens with 8 samples.

Results

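The cancer-testis antigen gene families are described here in cells labelled A549, a human lung adenocarcinoma line, with and without overexpression of KRT19. Members were all protein-coding genes of the deposited table whose symbols begin as those of the MAGEA, MAGEB, MAGEC, GAGE, XAGE, PAGE, SSX, CTAG and CT45A families, together with PRAME. This gave 78 of 58735 genes, of which 70 lay on the X chromosome. The letters of the rule also caught SSX2IP, a cytoplasmic binding partner of SSX2 that is no cancer-testis antigen, and 6 genes named CTAGE, so that 71 genes were left without these. Reads of near-identical genes cannot be placed with certainty, so genes were summed before the groups were compared where the sequence words they shared made up at least 50% of the words of each, directly or through a chain of such pairs. This turned the 78 genes into 51 rows. GAGE1, GAGE10 and GAGE12B stayed outside the summed GAGE copies, since their transcripts differ in length from the others or share less, although all 43 words of GAGE12B also occur in other GAGE genes.

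Cancer-testis antigens are proteins normally made in the germ cells of the testis and, for some, in placenta. In other tissues their promoters are kept silent by DNA methylation, and many tumours express them again, so that T cells can recognise peptides cut from them. Most families lie on the X chromosome in clusters of recent duplicates, and the MAGE proteins bind RING ubiquitin ligases through a shared fold, the MAGE homology domain.

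The series compared 4 libraries of cells carrying an empty lentiviral vector (EV) with 4 libraries of cells carrying a lentivirus for Flag-tagged KRT19 (KRT19), a keratin of simple epithelia. Both groups had passed through puromycin selection for 4 weeks to give stable lines, and the vector and the selection were therefore shared by the controls. Total RNA was taken with TRIzol and libraries were made with a NEBNext Ultra kit. Nothing in the labels says that the 4 libraries of a group came from separate cultures, so the p-values below measure the spread between these libraries only. In these bulk samples, fewer cells expressing a gene and less RNA per cell cannot be told apart.

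Each library held 14073065 to 17054364 counts, of which the 78 genes took 0.168% to 0.193%. KRT19 itself had 1 to 5 counts in the EV libraries and 4353 to 5147 in the KRT19 libraries. KRT19 replicate 3 stood apart from the other KRT19 libraries (chi-square per degree of freedom 7.71 to 13.5 in its pairs, against 2.70 to 3.65 among the other 3 and 3.03 to 6.48 among the EV libraries), and values are given with and without it where it matters. The line's defining markers were only partly as known for A549. KRT8, KRT18 and TXNRD1 were abundant, but EPCAM, ALDH1A1 and ALDH3A1 had at most 4 counts in any library, and CDKN2A (1328 to 1824 counts) and MTAP (653 to 870 counts), both lost from the A549 genome, were present in all 8. The cells are therefore called cells labelled A549. Of 6 germ cell markers, none exceeded 3 counts in a library and DAZL, TNP1 and PRM1 were at 0, their summed level being 0.118 to 0.333 CPM (counts scaled to a common library size) in EV and 0.117 to 0.213 CPM in KRT19. The label text on extraction names retina, of whose markers RCVRN and SAG were at 0 and NRL had 9 to 24 counts.

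The sequences below show how alike some of the genes are. GAGE2A and GAGE12J, which carried most reads of the summed GAGE copies, had coding sequences of 351 and 354 bases that differed at 6 of 351 aligned bases. Their shared words made up 49.7% of those of GAGE12J and 51.1% of those of GAGE2A, so they were joined only through a chain of other copies. Printed is the stretch of 90 coding bases with the most differences between GAGE2A and GAGE12J, the 4 differing bases in capitals.
GAGE12J: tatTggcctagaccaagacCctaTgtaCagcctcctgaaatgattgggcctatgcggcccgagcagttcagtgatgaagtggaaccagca
GAGE2A: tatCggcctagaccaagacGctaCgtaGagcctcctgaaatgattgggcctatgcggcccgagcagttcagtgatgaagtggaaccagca
MAGEA3 and MAGEA6 were kept as separate rows, since their shared words made up 42.0% of those of MAGEA3 and 39.8% of those of MAGEA6, and their coding sequences of 945 bases differed at 18 bases. The stretch of 90 bases with the most differences between them is printed in the same way.
MAGEA3: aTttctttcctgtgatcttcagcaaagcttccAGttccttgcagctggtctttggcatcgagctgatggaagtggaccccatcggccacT
MAGEA6: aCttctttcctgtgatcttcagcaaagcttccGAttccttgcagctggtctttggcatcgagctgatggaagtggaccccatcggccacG
The coding sequences of XAGE1A and XAGE1B, like those of MAGEA2 and MAGEA2B, did not differ at any base. A read falling inside the coding part of such a pair cannot be assigned to either copy, and how the deposited counts treated such reads is not given in the sources used here. These sequences were taken from GENCODE 29 transcripts, using the longest complete coding sequence of each gene.

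Promoters of 64 of the 78 genes were matched by symbol in a RefSeq table on GRCh38.p14, which gives 250 bases before and 50 bases after each start, and 63 genes had a start within 1000 bases of their own span in the count table. The entry of GAGE12B, 188705 bases away, and 1 start of CT45A10, 4358 bases away, were not used. The promoters of 4 expressed antigens and 2 silent ones are printed with every CG pair, the site at which DNA methylation acts, in capitals. The expressed ones are MAGEA3 (chrX:152698544-152698843, plus strand), MAGEA6 (chrX:152769640-152769939, minus strand), MAGEA4 (chrX:151916675-151916974, plus strand) and XAGE1A (chrX:52495627-52495926, plus strand).
MAGEA3: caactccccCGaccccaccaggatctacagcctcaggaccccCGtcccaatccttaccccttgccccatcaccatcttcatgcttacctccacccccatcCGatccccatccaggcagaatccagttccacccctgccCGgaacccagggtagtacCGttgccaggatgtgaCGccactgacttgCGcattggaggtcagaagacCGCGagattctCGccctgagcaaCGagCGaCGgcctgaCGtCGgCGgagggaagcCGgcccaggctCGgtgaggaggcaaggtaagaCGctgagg
MAGEA6: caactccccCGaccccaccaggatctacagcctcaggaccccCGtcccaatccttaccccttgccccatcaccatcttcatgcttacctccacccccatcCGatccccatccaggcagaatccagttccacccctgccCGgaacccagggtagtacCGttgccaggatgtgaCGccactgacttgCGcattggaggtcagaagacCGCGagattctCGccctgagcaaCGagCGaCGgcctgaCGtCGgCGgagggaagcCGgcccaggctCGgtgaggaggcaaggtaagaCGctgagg
MAGEA4: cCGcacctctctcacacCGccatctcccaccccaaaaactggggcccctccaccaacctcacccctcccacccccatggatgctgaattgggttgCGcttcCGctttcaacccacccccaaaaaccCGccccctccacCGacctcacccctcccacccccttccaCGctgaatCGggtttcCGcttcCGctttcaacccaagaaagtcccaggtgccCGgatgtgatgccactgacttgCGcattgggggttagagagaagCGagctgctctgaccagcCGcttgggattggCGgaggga
XAGE1A: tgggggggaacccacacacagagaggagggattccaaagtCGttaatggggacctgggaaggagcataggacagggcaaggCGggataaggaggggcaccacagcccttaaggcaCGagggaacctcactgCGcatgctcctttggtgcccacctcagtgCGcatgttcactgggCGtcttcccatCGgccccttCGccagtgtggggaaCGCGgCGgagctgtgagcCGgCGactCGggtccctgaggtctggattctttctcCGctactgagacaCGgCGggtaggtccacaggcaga
The silent ones are MAGEA8 (chrX:149880933-149881232, plus strand) and MAGEC2 (chrX:142205241-142205540, minus strand), both at 0 counts in all 8 libraries.
MAGEA8: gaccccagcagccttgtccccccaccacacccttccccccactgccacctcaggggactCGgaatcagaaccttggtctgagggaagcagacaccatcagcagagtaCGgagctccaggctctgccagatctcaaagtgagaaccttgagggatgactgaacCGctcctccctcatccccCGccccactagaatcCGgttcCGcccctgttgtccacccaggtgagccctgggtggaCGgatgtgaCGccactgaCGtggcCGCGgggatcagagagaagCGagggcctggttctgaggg
MAGEC2: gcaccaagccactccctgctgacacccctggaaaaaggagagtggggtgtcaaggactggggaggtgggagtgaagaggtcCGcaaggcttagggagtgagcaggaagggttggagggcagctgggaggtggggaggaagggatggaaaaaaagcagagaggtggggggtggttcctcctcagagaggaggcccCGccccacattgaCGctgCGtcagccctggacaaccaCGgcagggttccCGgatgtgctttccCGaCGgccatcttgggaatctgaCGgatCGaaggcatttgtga
MAGEA3 and MAGEA6 had the same 300 bases here, with 19 CG pairs, while MAGEA4 had 15, MAGEA8 had 12 and MAGEC2 had 10.

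Within the families, expression was restricted to a few members. Of the 78 genes, 39 had no count in any library and 20 reached 10 counts in at least 1. After copies were summed, 27 of the 51 rows were at 0, 10 had between 1 and 9 counts at most, and 14 reached 10 counts. A count of 0 allows up to 3 counts in a library, or 0.176 to 0.213 CPM, a limit that covers counting error only. Reads therefore came from MAGEA genes (70.8% of all counts of the 78 genes), GAGE genes (15.3%) and PRAME (8.19%), SSX2IP taking 3.35%, with XAGE (0.939%), CT45A (0.825%) and CTAG (0.548%) far below.

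The silent members were at or near 0 in every library. All 8 SSX genes, transcriptional repressors known from the fusion gene of synovial sarcoma, and all 3 MAGEC genes were at 0 in every library of both groups. Of 11 MAGEB genes, 8 were at 0 and MAGEB5, MAGEB16 and MAGEB17 had at most 1 count in a library. Of 6 PAGE genes, 3 were at 0 and the others had at most 1 count. Among MAGEA genes, MAGEA8, MAGEA9, MAGEA9B and MAGEA11 were at 0. SSX2, SSX4 and SSX4B had no sequence word of their own, and MAGEA9 and MAGEA9B had 8.74% and 18.5%. How reads shared by such copies were counted is not given, so a 0 says less there. MAGEA1, the first tumour antigen of the family to be cloned, had 5, 7, 9 and 4 counts in EV and 6, 3, 10 and 9 in KRT19, overlapping ranges that did not pass the filter on low counts. CTAG2, also known as LAGE-1, reached 4 counts at most, and the CTAGE genes together 5. These members were called silent because they had no reads, or a few at most, in every library, so low counts in both groups follow from that choice.

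Levels of the 13 tested rows were ordered per kilobase of listed gene length, each copy being divided by its own length. The 10 GAGE copies came first with 398 CPM per kb on average over the 8 libraries (range 209 to 523), followed by MAGEA4 with 238 (229 to 254). The lowest GAGE library lay below all MAGEA4 libraries, so these neighbours were not separated. MAGEA6 (90.4, range 84.0 to 96.1) and MAGEA3 (87.9, range 80.5 to 92.8) overlapped, and MAGEA12 (72.5, range 67.7 to 79.5) lay below both. PRAME (39.2, range 34.7 to 40.5) stood alone, while MAGEA10 (24.0, range 21.1 to 33.8) overlapped GAGE1 (19.9, range 13.8 to 23.5). XAGE1A and XAGE1B together (14.2, range 4.98 to 31.1), CT45A (11.2, range 8.64 to 13.7) and CTAG1A with CTAG1B (9.84, range 9.24 to 10.6) overlapped one another. SSX2IP, no antigen, followed (7.01, range 5.94 to 8.42), and MAGEA2 with MAGEA2B was lowest (2.62, range 1.24 to 3.86). The wide range of XAGE1 also reached those of MAGEA10, GAGE1 and SSX2IP. This order compares levels per length, whereas the CPM values below are not divided by length.

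**Figure D1:**
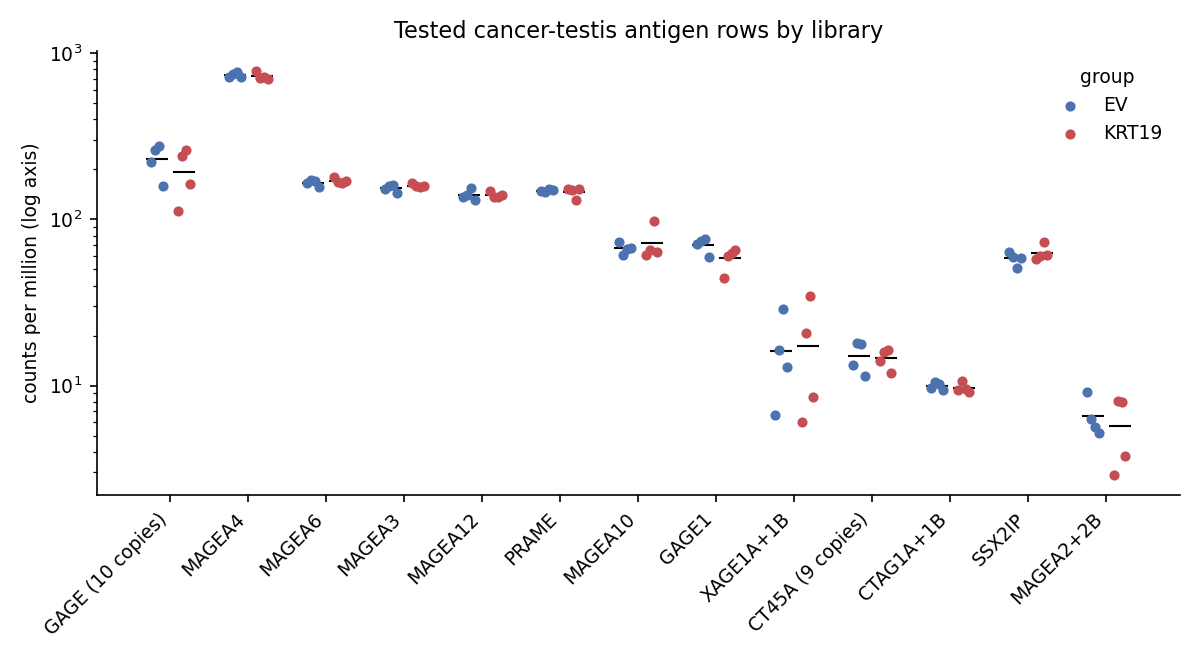
CPM (counts scaled to a common library size, log axis) of the 13 tested rows in each EV (blue) and KRT19 (red) library, with a bar at each group's mean, ordered by level per kilobase. MAGEA4 lay between 704 and 784 CPM in all 8 libraries, while XAGE1A with XAGE1B ran from 6.04 to 34.4 CPM, and in no row were the groups apart.

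The comparison of KRT19 with EV asked whether the antigens moved with the keratin. None was called at an adjusted threshold of 0.05 (edgeR quasi-likelihood test with Benjamini-Hochberg adjustment over all genes tested): 0 of the 13 tested rows passed, and the lowest adjusted p among them was 0.904. Over all 14616 tested rows 0.00684% passed, which was KRT19 alone. At an unadjusted p under 0.05 there was 1 of 13 rows, GAGE1, against a background of 5.41% of all rows. In 0 of 13 rows were the CPM of the groups free of overlap, against 3.43% of all rows. The log2 fold change was above 0 in 5 rows and below 0 in 8 (4 and 8 without SSX2IP), where 52.2% of all tested rows were above 0, with a median of -0.025 against 0.0051 over all genes. The median absolute log2 fold change was 0.052 among the members and 0.068 over all genes. Exact permutation of the libraries, which cannot give a p below 0.0286 with 4 against 4, gave 0.114 for GAGE1 and at least 0.343 for the other 12 rows (two-sided).

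**Figure D2:**
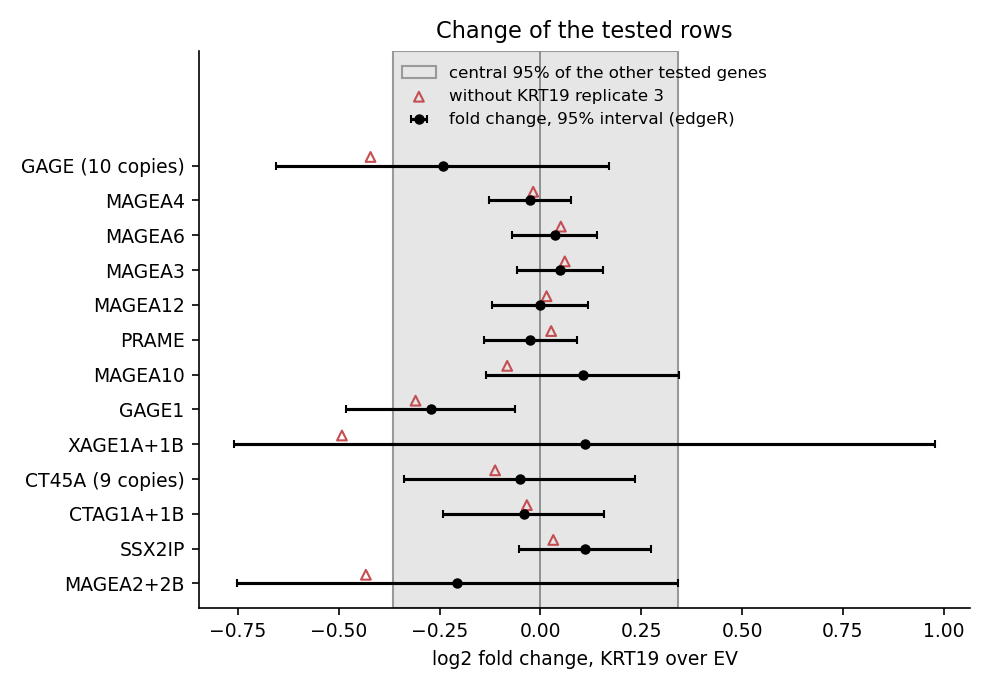
Log2 fold change of KRT19 over EV for the 13 tested rows with 95% intervals (black), and the value without KRT19 replicate 3 (open triangles). The shaded band holds the central 95% of the other 14603 tested genes (-0.36 to 0.34), and only the interval of GAGE1 lay wholly on one side of 0.

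MAGEA4, a MAGE protein known to bind the ubiquitin ligase RAD18 and a target of engineered T cells, had the most counts of any member and lies at chrX:151912509-151925170 (GRCh38, plus strand). It measured 719, 753, 772 and 722 CPM in the EV libraries and 784, 708, 716 and 704 CPM in the KRT19 libraries. The highest and the lowest library were both KRT19, and the groups overlapped. The means were 741 ± 25.6 and 728 ± 37.6 CPM (SD, n = 4 each), a log2 fold change of -0.026 ± 0.049 (SE). The 95% interval of the fold, 0.915 to 1.05, lay close to 1 on both sides. MAGEA4 shares 5.58% of its exon bases with an antisense gene, MAGEA4-AS1, and without stated strand handling their reads cannot be told apart.

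MAGEA3 and MAGEA6 are partners of TRIM28, a RING ligase and corepressor, and are best known as vaccine targets. MAGEA3 measured 153, 160, 162 and 144 CPM in EV and 166, 158, 156 and 159 CPM in KRT19. MAGEA6 measured 165, 173, 171 and 156 CPM in EV and 179, 167, 165 and 170 CPM in KRT19. Both were lowest in EV replicate 4 and highest in KRT19 replicate 1, and in both the groups overlapped. Log2 fold changes were 0.048 ± 0.051 (SE) for MAGEA3 and 0.036 ± 0.050 for MAGEA6. Since their coding sequences were 98.1% identical, they were also summed, a step chosen after seeing the data, which gave 321 ± 15.4 CPM in EV and 330 ± 10.3 CPM in KRT19 (SD, n = 4 each) and a log2 fold change of 0.042 ± 0.049.

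MAGEA12, whose coding sequence was 92.6% identical to that of MAGEA3, measured 137, 140, 154 and 131 CPM in EV and 149, 137, 136 and 141 CPM in KRT19. Its means, 141 ± 9.80 and 141 ± 5.97 CPM (SD, n = 4 each), gave a log2 fold change of -0.00038 ± 0.056 (SE). Highest and lowest libraries were both EV. MAGEA2 with MAGEA2B, the least expressed tested row, had 138, 104, 93 and 88 counts in EV and 48, 114, 136 and 57 counts in KRT19. KRT19 replicates 1 and 4 lay below every EV library in CPM and the other 2 inside the EV range, and the log2 fold change was -0.21 ± 0.26. It was -0.43 ± 0.24 without KRT19 replicate 3 and turned to 0.019 without KRT19 replicate 1.

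MAGEA10, for which 16.2% of the exon bases overlap the readthrough gene MAGEA10-MAGEA5 on the same strand, stood out in 1 library. It had 1102, 1018, 1094 and 1140 counts in EV and 1012, 921, 1672 and 959 counts in KRT19, where the high value belonged to replicate 3. The log2 fold change was 0.10 ± 0.11 (SE) with that library and -0.082 ± 0.060 without it, so that its sign turned. SSX2IP was also highest there, with 1243 counts against 843 to 998 in the other 7 libraries, and its log2 fold change went from 0.11 ± 0.078 to 0.032 ± 0.064 without it. PRAME went the other way, with 131 CPM in KRT19 replicate 3 and 146 to 153 CPM in the other 7 libraries. PRAME, a substrate receptor of a cullin ubiquitin ligase on chromosome 22, had a log2 fold change of -0.025 ± 0.055 with and 0.027 ± 0.045 without that library.

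The GAGE genes encode small proteins of little known function and lie in an array of near-identical repeats, GAGE12J at chrX:49322057-49329384 and GAGE2A at chrX:49589529-49596827 (GRCh38, plus strand). The 10 copies together measured 221, 262, 279 and 158 CPM in EV and 113, 241, 261 and 162 CPM in KRT19. EV replicate 4 and KRT19 replicates 1 and 4 were low, and the groups overlapped. The means were 230 ± 53.6 and 194 ± 69.2 CPM (SD, n = 4 each), giving -0.24 ± 0.20 (SE) on the log2 scale at an adjusted p of 0.919 (edgeR). Without KRT19 replicate 1 the log2 fold change shrank to -0.052, and without KRT19 replicate 3 it was -0.42 ± 0.16.

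Single GAGE copies switched between libraries by far more than any group difference. GAGE2A had 1851, 2771, 2852 and 2541 counts in EV and 2, 1946, 2317 and 2361 counts in KRT19. GAGE12J had 1380, 1517, 1666 and 27 counts in EV and 1784, 1409, 1923 and 14 counts in KRT19. GAGE2A was thus nearly missing from KRT19 replicate 1, and GAGE12J from replicate 4 of both groups. GAGE2A made up 0.107% of the summed copies in KRT19 replicate 1, 94.5% in EV replicate 4, 96.2% in KRT19 replicate 4 and 52.0% to 63.8% in the other 5 libraries. In these 3 libraries the other copy stayed within the range it had elsewhere, and they had the 3 lowest sums. GAGE13 (40 to 194 counts) and GAGE12E (20 counts in KRT19 replicate 3 and at most 1 elsewhere) were highest in KRT19 replicate 3. Why a copy was missing from a library was not tested.

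**Figure D3:**
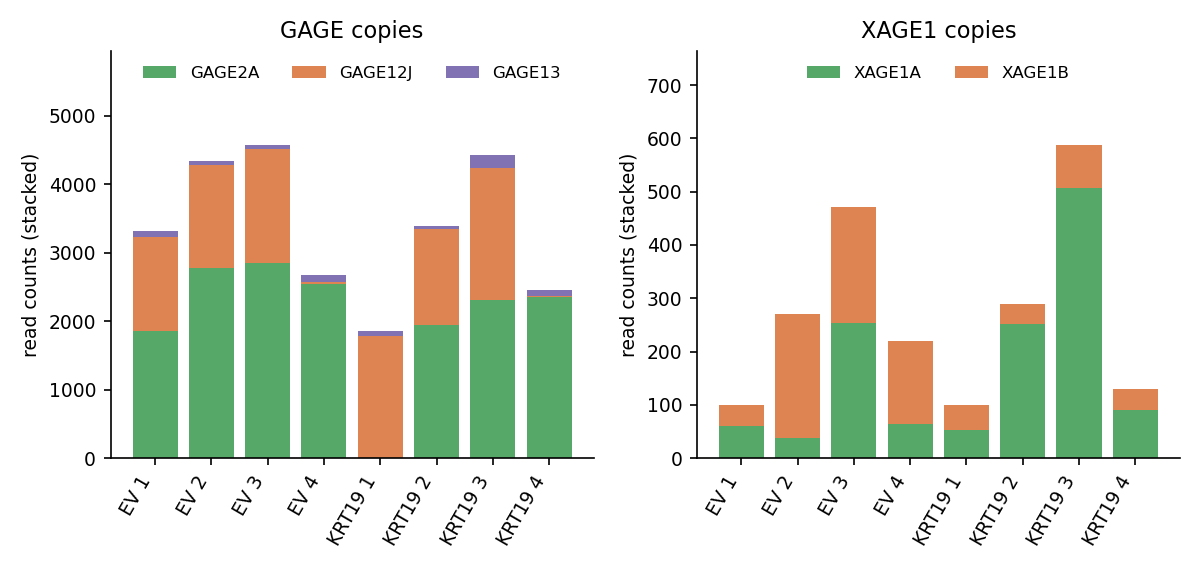
Read counts of GAGE2A, GAGE12J and GAGE13 (left, stacked) and of XAGE1A and XAGE1B (right, stacked) in each of the 8 libraries. GAGE2A had 2 counts in KRT19 replicate 1, GAGE12J had 27 and 14 counts in replicate 4 of EV and KRT19, and XAGE1A held 14.1% to 86.9% of the XAGE1 counts.

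GAGE1, the member of the array with a longer annotated transcript and 87.9% of its words to itself, was the row with the smallest p. Its coding sequence differed from that of GAGE12J at 4 of 354 bases and from that of GAGE2A at 8 of 351, so reads of the coding part cannot all be placed. It measured 71.6, 74.5, 76.0 and 59.6 CPM in EV and 44.6, 60.7, 62.5 and 65.6 CPM in KRT19. EV replicate 4 lay among the KRT19 libraries, so the groups overlapped, and the lowest value was again KRT19 replicate 1. KRT19 stood at 0.828 times EV (95% interval 0.717 to 0.957), or -0.27 ± 0.099 (SE) in log2 units, with an unadjusted p of 0.0135 and an adjusted p of 0.904 by edgeR. It was rank 212 of 14616 by p. Leaving out 1 library at a time gave log2 fold changes of -0.34 to -0.16. GAGE1 overlaps GAGE2A on the same strand, and the 2 rows were both lowest in KRT19 replicate 1. Under a looser filter of at least 1 count over all libraries, GAGE1 and the 10 GAGE copies had adjusted p-values of 0.0152 and 0.00847. That fit tested 30235 rows and its estimate of prior degrees of freedom was infinite, against 11.3 with the filter used here, so each row's own spread was replaced by a common trend. Summing all 13 GAGE genes, chosen after seeing the data, gave 300.4 ± 60.9 and 253 ± 75.7 CPM (SD, n = 4 each), a log2 difference of -0.25 ± 0.17 at an adjusted p of 0.904 (edgeR).

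XAGE1A and XAGE1B, copies of a gene of the XAGE family on the short arm of the X chromosome, were as a sum the most variable of the tested rows. Together they had 100, 270, 472 and 219 counts in EV and 100, 290, 588 and 129 counts in KRT19. Libraries of the same replicate number held like counts, apart from replicate 4, and both groups covered almost the same wide range. Without a block, the log2 fold change was 0.11 ± 0.41 (SE). It became -0.49 ± 0.32 without KRT19 replicate 3, whose XAGE1 level was the highest of all, and 0.54 ± 0.41 without EV replicate 3, the highest EV library. It was 0.40 ± 0.36 without KRT19 replicate 1. Fitted apart, the copies moved in opposite directions, with log2 fold changes of 1.15 ± 0.55 for XAGE1A and -1.59 ± 0.35 for XAGE1B (unadjusted p = 0.053 and 0.00026, adjusted p = 0.906 and 0.377, edgeR). XAGE1A had no sequence word of its own and XAGE1B had 23.7%, so only their sum is given as a level.

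CTAG1A and CTAG1B encode NY-ESO-1, an antigen to which many patients make antibodies and T cells. Together they had 145, 175, 167 and 159 counts in EV and 155, 149, 162 and 139 counts in KRT19. Libraries of both groups were intermingled, their means being 9.93 and 9.66 CPM and the log2 difference -0.042 ± 0.095 (SE). The 9 CT45A copies had 199, 300, 293 and 194 counts in EV and 234, 225, 279 and 181 counts in KRT19, nearly all on CT45A1. Their log2 fold change was -0.052 ± 0.14, the groups again overlapping. It was -0.11 ± 0.13 without KRT19 replicate 3 and turned to 0.044, 0.036 and 0.031 without EV replicate 2, EV replicate 3 and KRT19 replicate 4.

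Spread between replicate libraries thus divided the expressed members. The coefficient of variation within groups was 4.01% to 5.99% for MAGEA3, MAGEA4, MAGEA6, MAGEA12, PRAME and CTAG1A with CTAG1B. It was 66.7% for XAGE1A with XAGE1B, 39.2% for MAGEA2 with MAGEA2B, 30.1% for the GAGE copies, 18.3% for CT45A, 17.8% for MAGEA10 and 13.6% for GAGE1. Without KRT19 replicate 3 it was 5.73% for MAGEA10 and 1.47% for PRAME, while that of the GAGE copies was 31.4% and that of XAGE1 62.2%. The median over all tested genes was 8.52%. Of 852 genes outside the families within 0.5 log2 units of the level of the GAGE copies, 0.117% had as large a coefficient of variation, and of 1997 such genes at the level of XAGE1, 0.100%. At the level of CTAG1A with CTAG1B, in contrast, 93.7% of 1529 genes varied at least as much.

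**Figure D4:**
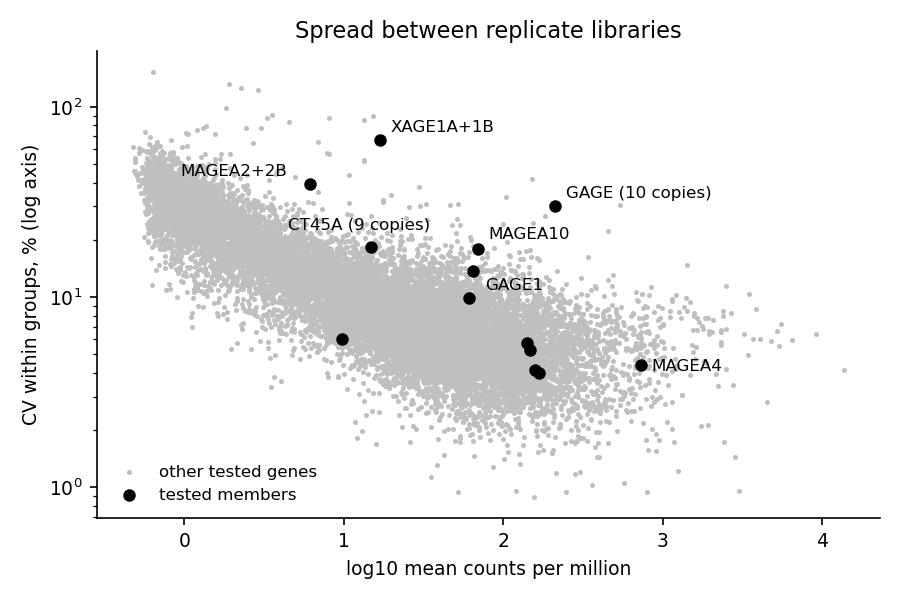
Coefficient of variation within groups (log axis, %) against log10 mean CPM for all tested genes (grey) and the 13 tested rows (black). XAGE1A with XAGE1B (66.7%), MAGEA2 with MAGEA2B (39.2%) and the 10 GAGE copies (30.1%) lay at the upper edge of the cloud, while MAGEA4 (4.39%) lay inside it.

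The CG content of the promoters of expressed and silent antigens is given as a description, with no test. The 10 tested antigen rows with a promoter in the table held 8 to 19 CG pairs in 300 bases, with a median of 15. The 25 rows at 0 counts held 2 to 21, with a median of 10, and all 27304 genes had a median of 16. Ranges overlapped widely: CT45A1 was expressed with 8 CG pairs, and MAGEA11 and MAGEB2 were silent with 21 each. The 9 GAGE copies of the table in the summed row had 13 each, from GAGE2A with up to 2852 counts to GAGE12D with none. GAGE12D had no sequence word of its own, so its lack of counts does not show that it was silent. The 5 tested MAGEA rows held 15 to 19, the silent MAGEA8, MAGEA9 and MAGEA9B held 10 to 12, and the silent MAGEA11 held 21. The ETS motif CCGGAA, searched on both strands, occurred in 3 of the 10 expressed rows (MAGEA3, MAGEA6 and PRAME), in 1 of the 25 silent rows (MAGEB6) and in 18.4% of all promoters. The GC box GGGCGG occurred in 1 of 10, 9 of 25 and 47.0% in the same order, and the E-box CACGTG in 2 of 10, 3 of 25 and 7.53%. Methylation itself was not measured, genes with several starts were represented by the start with the most CG pairs, and a summed row by its copy with the highest count.

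**Figure D5:**
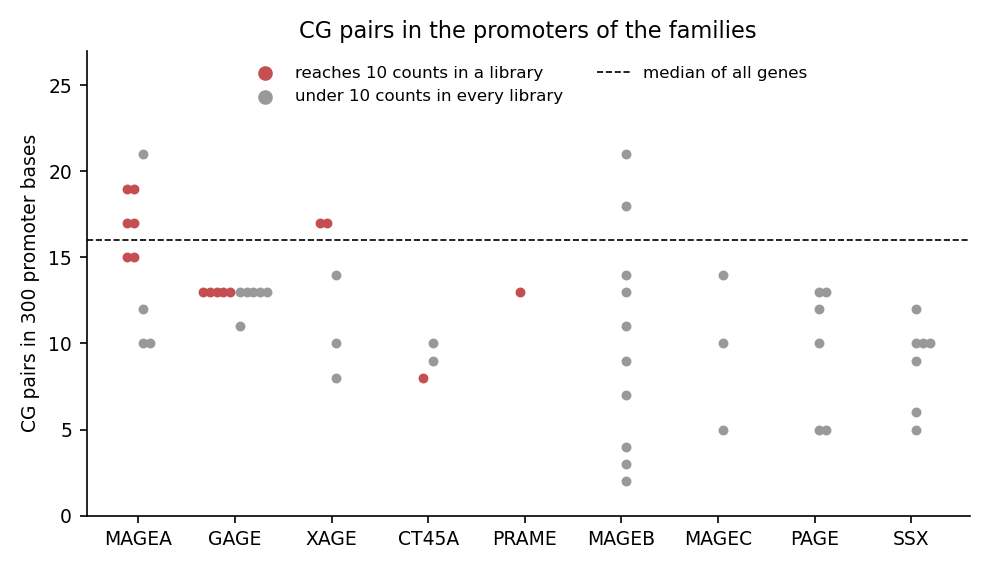
CG pairs in 300 promoter bases of the matched antigen genes by family, split by whether the gene reached 10 counts in a library (red) or not (grey). Near-identical copies are coloured by their own counts, which depend on how shared reads were placed. The dashed line is the median of all genes (16), and the expressed MAGEA genes lay at 15 to 19, with the silent MAGEA8, MAGEA9 and MAGEA9B at 10 to 12 and the silent MAGEA11 at 21.

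The genes that silence or partner the antigens did not pass the test either. Of 29 genes of DNA methylation and chromatin silencing, all tested, 0 passed the adjusted threshold, 18 had log2 fold changes above 0 and 11 below, with a median of 0.033. For this list and those that follow, 52.2% of all tested rows were above 0. UHRF1, which brings the maintenance methyltransferase to replicated DNA, had the smallest p of the list and measured 207 ± 8.58 CPM in EV and 230.4 ± 6.96 CPM in KRT19 (SD, n = 4 each). Its groups did not overlap, alone among the 29 genes, where 3.43% of all tested rows were free of overlap. The log2 difference was 0.16 ± 0.048 (SE), and the adjusted p was 0.850 (edgeR). DNMT1, the maintenance methyltransferase itself, had a log2 fold change of 0.12 ± 0.048, and the de novo enzymes DNMT3A and DNMT3B had -0.13 ± 0.065 and 0.040 ± 0.086. CTCFL, the germ line paralogue of CTCF, had at most 4 counts in a library. Of 14 ubiquitin ligase partners, 7 were above 0 and 7 below, and TRIM28 measured 453 ± 6.87 CPM in EV and 475 ± 42.3 CPM in KRT19 (log2 fold change 0.068 ± 0.056).

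MAGE genes outside the rule, mostly expressed outside the germ line, were detected for 7 of 11, all 7 with log2 fold changes below 0 and a median of -0.12, but 0 passed. Near-identical copies in the lists were not summed, so MAGED4 and MAGED4B count separately among the 7. MAGED2 measured 163 ± 5.96 CPM in EV and 155 ± 6.54 CPM in KRT19 (SD, n = 4 each). MAGED4B had the smallest p, with 4.59 ± 4.15 and 0.808 ± 0.111 CPM, a log2 difference of -2.50 ± 0.60 (SE) at an adjusted p of 0.487 (edgeR), but it has a near-identical copy in MAGED4, which measured 3.83 ± 2.73 and 2.78 ± 2.82 CPM. Among 36 further cancer-testis genes listed as X-linked, of which 35 lie on the X chromosome and CT62 on chromosome 15, 26 were at 0 and 6 were tested, of which PASD1 (1369 to 1606 counts) and CSAG1 (971 to 1167 counts), a neighbour of the MAGEA cluster, were the most abundant, both named after their values were seen. NXF2, CSAG2 and CSAG3 had the 3 smallest p-values of that list, with log2 fold changes of -1.80 ± 0.66, -0.33 ± 0.13 and 0.19 ± 0.15, and all had near-identical copies. Of 50 further ones listed as autosomal, of which only TAF7L, not tested, lies on the X chromosome, 19 were tested, 13 above and 6 below 0, and of 10 mitotic genes catalogued as cancer-testis genes, 9 were above and 1 below 0. In both lists 0 passed the adjusted threshold, and KIF20B had the smallest p among the mitotic genes (66.7 ± 5.89 and 79.6 ± 16.6 CPM, log2 fold change 0.26 ± 0.11). KIF20B measured 101 CPM in KRT19 replicate 3, and without that library its log2 fold change was 0.12 ± 0.075, while 8 of the 10 mitotic genes were above 0. Leaving it out also moved TRIM28 from 0.068 to 0.11 and DNMT3B from 0.040 to 0.084, with 0 genes of any list past the adjusted threshold.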

How the data were processed

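RNA-seq of 8 libraries (4 EV, 4 KRT19, grouped and numbered by their titles) was deposited by the authors as 1 table of raw read counts per gene, without normalization. The submitters' processing notes name hg38, Bowtie 0.12.2, featureCounts 1.5.0-p3 and DESeq2 without saying how each was used, and handling of strand and of reads with several matches is not given in the sources used here. All 58735 genes had the coordinates of GENCODE 29. Members and gene lists were chosen with earlier results of these data known.

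Member genes were joined where the 75-base words they shared made up at least 50% of the words of each, and genes linked through other genes were joined too. Their counts were then summed. Counts were fitted over the whole table in R 4.3.3 with edgeR 4.0.16 (filterByExpr, TMM, glmQLFit and glmQLFTest, group as the only term), and p-values were adjusted by Benjamini-Hochberg over 14616 rows, with a threshold of 0.05. CPM used TMM-scaled library sizes, and the precision of each value follows its counts (14073065 to 17054364 per library). Named were all rows tested or reaching 10 counts, and, of the related lists, up to 3 genes with the smallest p plus 7 chosen regulators, of which those bearing on the families are printed. Alternatives were limma 3.58.1 voom with quality weights, DESeq2 1.42.0, other normalizations and filters, a replicate block, unsummed copies, leaving out each library, and 2 further sums chosen after seeing the data. Promoter and coding sequences were compared in Biopython 1.88.

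Over all tested rows, libraries of the same number did not deviate together (correlations of deviations -0.17 to 0.012 over the 4 numbers), so the fit has no block. Within each group, no library pair was close enough in counts to be 1 library deposited again.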

Additional observations from a re-analysis of the deposited data

Results flagged for a closer look

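For the 13 tested rows, the summed copies that reached 10 counts, and KRT19, each group of 4 libraries was examined for a library far from the other 3 on the log2 CPM scale, measured as its gap to the nearest library divided by the group's whole range. Of 50 groups, 9 had such a library, where chance gives about 1 in 20, or 2.5. In 2 of them, those of GAGE12E, the other 3 libraries were at 0, so the ratio is 1 whatever the fourth holds, and without these it was 7 of 48 groups, against 2.4 by chance. The groups are not independent, since sums and their own copies are both among them. The ratio was 0.845 for MAGEA4, highest in KRT19 replicate 1, 0.882 for PRAME, lowest in KRT19 replicate 3, and 0.853 for MAGEA10, highest in KRT19 replicate 3. Among the GAGE copies it was 0.975 for GAGE12J, lowest in EV replicate 4, and 0.975 for GAGE12J in KRT19 replicate 4. It was 0.978 for GAGE2A, lowest in KRT19 replicate 1. GAGE12E had ratios of 1 in both groups, highest in EV replicate 4 with 1 count and in KRT19 replicate 3 with 20 counts. KRT19 itself was lowest in KRT19 replicate 3, with a ratio of 0.949. Leaving the groups of GAGE12E aside, KRT19 replicate 3 was the far library in 3 of 7 groups (PRAME, MAGEA10 and KRT19), and it was also the library that stood apart over all genes. Whether the same circumstance lay behind these values was not tested.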

How the results depend on the processing

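Without any 1 library, log2 fold changes ran from -0.42 to -0.052 for the 10 GAGE copies, -0.34 to -0.16 for GAGE1, -0.064 to -0.0064 for MAGEA4, 0.015 to 0.071 for MAGEA3, 0.0074 to 0.052 for MAGEA6, -0.032 to 0.046 for MAGEA12, -0.046 to 0.027 for PRAME, -0.082 to 0.18 for MAGEA10, -0.49 to 0.54 for XAGE1A with XAGE1B, -0.17 to 0.044 for CT45A, -0.087 to -0.013 for CTAG1A with CTAG1B, -0.43 to 0.019 for MAGEA2 with MAGEA2B, 0.032 to 0.16 for SSX2IP and 10.52 to 11.17 for KRT19, with a median of -0.034 to 0.036 over the tested members. These fits tested 14777 to 14826 rows. Counts ran from 1 to 4 genes past the adjusted threshold (4 without KRT19 replicate 3) and 623 to 1237 genes at an unadjusted p under 0.05 (1237 without KRT19 replicate 1). Of the 13 member rows, 1 to 2 had that p and 0 passed the adjusted threshold. Genes past the adjusted threshold numbered 5 with DESeq2, 8 with limma-voom and 69 with the looser filter, against 1 in edgeR. Under the looser filter 2 of 24 member rows passed, GAGE1 and the GAGE copies, against 69 of all 30235 rows. The estimate of prior degrees of freedom was infinite there. Of 14616 tested rows, 1344 had an unadjusted p under 0.05 with limma-voom and 453 with the replicate block, against 791 in the main fit. With the looser filter it was 1553 of 30235. Members at that p numbered 0 of 13 with limma-voom, 2 of 24 with the looser filter and 2 of 13 with the replicate block, against 1 of 13. With the replicate block, the log2 fold change of XAGE1A with XAGE1B was 0.018 ± 0.14 (SE) and that of the GAGE copies -0.28 ± 0.12, against SEs of 0.41 and 0.20 without it, and neither passed the adjusted threshold. When copies were not summed, 3 of 18 member rows had an unadjusted p under 0.05, against 791 of all 14621 rows. When all GAGE genes were summed, it was 0 of 12 member rows, against 790 of all 14615. The sign turned for MAGEA12 with DESeq2 size factors (0.00036), DESeq2 (0.00037), limma-voom (0.031) and the replicate block (0.00083). With limma-voom it also turned for PRAME (0.011), MAGEA10 (-0.024) and XAGE1A with XAGE1B (-0.30). Log2 fold changes that kept their sign also moved with limma-voom, among others from 0.048 to 0.075 for MAGEA3, 0.036 to 0.058 for MAGEA6 and -0.27 to -0.18 for GAGE1. The cause was not tested. Upper-quartile scaling left 39.4% of genes at an unadjusted p under 0.05 higher in KRT19, against 53.1%. Rows with fewer counts than filterByExpr asks for were left out of the test by that filter, and the looser filter tested 24 member rows, against 13.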
